A study of Mus musculus with 20 samples.

Results

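The genes described here are 9 components of the rod phototransduction cascade, *Gnat1*, *Gnb1*, *Gngt1*, *Pde6a*, *Pde6b*, *Pde6g*, *Cnga1*, *Cngb1* and *Sag*, chosen by symbol for their role in the cascade, with no threshold on a measured value. All 9 were listed among the 19368 genes of the P17 tables and the 19102 genes of the P30 tables, and all 9 passed the filter on low values, which left 15704 and 15408 genes. RNA of whole C57BL/6J mouse retinas was sequenced in bulk, in 20 libraries of 4 groups of 5. Values are FPKM, fragments scaled by transcript length and by the mapped fragments of the library, so they are adjusted for transcript length and can be set side by side between genes.

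In the first experiment, *Atf6*+/+ and *Atf6*-/- mice underwent oxygen-induced retinopathy (OIR): pups were kept in 75% oxygen from P7 to P12, returned to room air, and retinas were taken at P17. Every library of this experiment therefore comes from a retina after OIR, and retinas kept in room air throughout were not analysed here. In the second, *Atf6*+/+ mice received an intravitreal injection of 1 µL of saline vehicle or of 10 µM Ceapin-A7, a small molecule that blocks activation of ATF6, at P30, and retinas were taken 24 h later. Both saline and Ceapin-A7 eyes were thus injected eyes with no exposure to high oxygen. The control is called PBS in the labels, and the sources differ on the solvent: the labels give 1 range for both solutions, whereas the study's methods give more dimethyl sulfoxide in the control than in the Ceapin-A7 solution. An effect of the drug and one of the solvent cannot be told apart where the vehicles were unequal. ATF6 is a membrane protein of the endoplasmic reticulum that is cleaved under protein-folding stress to release a transcription factor. The *Atf6*-/- mice carry a premature stop codon in every cell type of the retina, so the loss is not limited to rods. *Atf6* RNA was between 14.61 and 16.05 FPKM in *Atf6*+/+ OIR and between 13.57 and 16.83 FPKM in *Atf6*-/- OIR, so the gene-level amount of RNA does not tell the genotypes apart and they were taken from the labels. Both sexes were used.

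Rods are the dim-light photoreceptors and the most numerous cells of the mouse retina. When light is absorbed by the visual pigment in the outer segment, the pigment activates transducin, a G protein made of an alpha (*Gnat1*), a beta (*Gnb1*) and a gamma subunit (*Gngt1*). The transducin alpha subunit then relieves the inhibition that the gamma subunit (*Pde6g*) exerts on the catalytic subunits of phosphodiesterase 6 (*Pde6a* and *Pde6b*), cyclic GMP falls, and the cyclic nucleotide-gated channel (*Cnga1* and *Cngb1*) closes. Rod arrestin (*Sag*) ends the signal by binding the phosphorylated pigment. *Gnb1* is the least specific of these genes, since the same beta subunit is used by G proteins of many other cell types.

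As background, the sequences around the transcription starts of 4 of these genes are shown. Whether these sequences bear on the levels given below was not tested. RefSeq promoters (GRCm38.p6) were at hand for 6 of the 9 genes, *Sag*, *Gnb1*, *Cnga1*, *Pde6b*, *Gngt1* and *Cngb1*, each running from 250 bases before to 50 bases after the annotated start. They were searched on both strands for TAATCC (reverse complement GGATTA), a run of letters recognised by the photoreceptor homeodomain factor CRX, and for TGCTGA (reverse complement TCAGCA), the core of the site recognised by the rod leucine zipper factor NRL. The letters of the 2 motifs do not overlap each other in any of these promoters. In the sequences below, written 5′ to 3′ on the strand of the gene, capitals mark every match.
*Cngb1* (chr8:95306536-95306835, minus strand): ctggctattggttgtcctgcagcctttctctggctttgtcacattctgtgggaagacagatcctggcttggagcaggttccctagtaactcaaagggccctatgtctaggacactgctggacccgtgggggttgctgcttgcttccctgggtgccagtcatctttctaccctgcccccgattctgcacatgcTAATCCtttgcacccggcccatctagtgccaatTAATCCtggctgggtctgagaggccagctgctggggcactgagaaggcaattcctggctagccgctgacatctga
*Sag* (chr1:87803430-87803729, plus strand): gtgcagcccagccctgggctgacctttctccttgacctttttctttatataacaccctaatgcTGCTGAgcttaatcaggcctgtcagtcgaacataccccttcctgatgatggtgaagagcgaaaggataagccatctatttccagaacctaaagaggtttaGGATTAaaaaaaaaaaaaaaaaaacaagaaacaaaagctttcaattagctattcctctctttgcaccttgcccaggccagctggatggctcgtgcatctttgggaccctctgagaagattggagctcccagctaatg
*Gngt1* (chr6:3993758-3994057, plus strand): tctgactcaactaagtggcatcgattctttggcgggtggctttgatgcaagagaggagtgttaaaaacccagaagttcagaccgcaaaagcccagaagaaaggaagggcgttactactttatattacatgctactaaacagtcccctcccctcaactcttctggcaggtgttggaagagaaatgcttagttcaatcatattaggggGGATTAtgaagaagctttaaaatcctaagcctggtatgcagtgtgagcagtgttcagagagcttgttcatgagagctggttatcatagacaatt
*Pde6b* (chr5:108388123-108388422, plus strand): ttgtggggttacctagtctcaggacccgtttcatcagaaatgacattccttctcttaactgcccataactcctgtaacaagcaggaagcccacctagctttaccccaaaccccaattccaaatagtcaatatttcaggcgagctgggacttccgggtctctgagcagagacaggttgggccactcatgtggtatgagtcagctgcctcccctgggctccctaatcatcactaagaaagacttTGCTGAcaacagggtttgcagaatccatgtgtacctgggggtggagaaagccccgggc

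TAATCC or its reverse complement was present in 4 of the 6 promoters, those of *Cngb1*, *Sag*, *Gngt1* and *Cnga1*, and in 7.06% of all 32851 promoters of the same length. *Cngb1* held it at 2 places, beginning 58 and 25 bases before the start, *Gngt1* at 44, *Sag* at 87 and *Cnga1* at 228 bases before it. TGCTGA or its reverse complement was present in 2 of the 6, beginning 187 bases before the start of *Sag* and 8 bases before that of *Pde6b*, and in 19.5% of all promoters. Neither run of letters was found in this window of *Gnb1*. A match is only a match of letters, and binding was not measured.

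The 9 genes were among the most abundant transcripts of the retina in every group. Their mean levels placed each of them above at least 98.9% of the genes listed, and *Gnat1* ranked 3 of all genes in both P17 groups and 2 in both P30 groups. Together they made up between 3.24% and 4.30% of the summed FPKM of the OIR libraries and between 2.44% and 3.69% of that of the P30 libraries. Cone counterparts were lower within the same libraries, by factors that differed widely between pairs. The FPKM ratio of *Gnat1* to its cone paralogue *Gnat2* was 69.5 in *Atf6*+/+ OIR, 61.8 in *Atf6*-/- OIR, 58.5 after saline and 52.4 after Ceapin-A7 (geometric means). The ratio of *Cnga1* to the cone channel gene *Cnga3* was 79.7, 89.5, 68.6 and 72.8 in the same order. *Gnb1* stood much closer to *Gnb3*, the beta subunit of cone transducin, which ON bipolar cells also express, with ratios of 3.48, 4.52, 4.66 and 6.28, and *Gngt1* stood as close to the cone gamma subunit *Gngt2*, with 3.95, 3.83, 5.50 and 5.41.

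By mean FPKM the order of the genes was the same in all 4 groups: *Gnat1*, *Pde6g*, *Sag*, *Gnb1*, *Gngt1*, *Pde6b*, *Pde6a*, *Cngb1* and *Cnga1*. In *Atf6*+/+ OIR the means ran from 5668 ± 303 FPKM for *Gnat1* (SD, n = 5) to 325 ± 25.1 for *Cnga1* (SD, n = 5). Several neighbours in this order had ranges that overlapped across libraries. In *Atf6*+/+ OIR the ranges of *Pde6g* and *Sag*, of *Gngt1* and *Pde6b* and of *Pde6b* and *Pde6a* overlapped, and in *Atf6*-/- OIR those of *Pde6g* and *Sag*, of *Gngt1* and *Pde6b* and of *Cngb1* and *Cnga1* did. After saline, 5 of the 8 neighbouring pairs overlapped, and after Ceapin-A7 none did. Within single libraries the order was steadier. After saline and after Ceapin-A7 the higher gene of every pair was above its neighbour in all 5 libraries. In *Atf6*+/+ OIR this was so in 4 of 5 for *Pde6g* over *Sag* and *Gngt1* over *Pde6b*. In *Atf6*-/- OIR it was so in 4 of 5 for *Cngb1* over *Cnga1*. All other OIR pairs kept the order in all 5. The order of the transducin subunits was therefore alpha, beta and gamma in every group, and the inhibitory subunit of phosphodiesterase 6 exceeded both catalytic subunits.

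**Figure D1:**
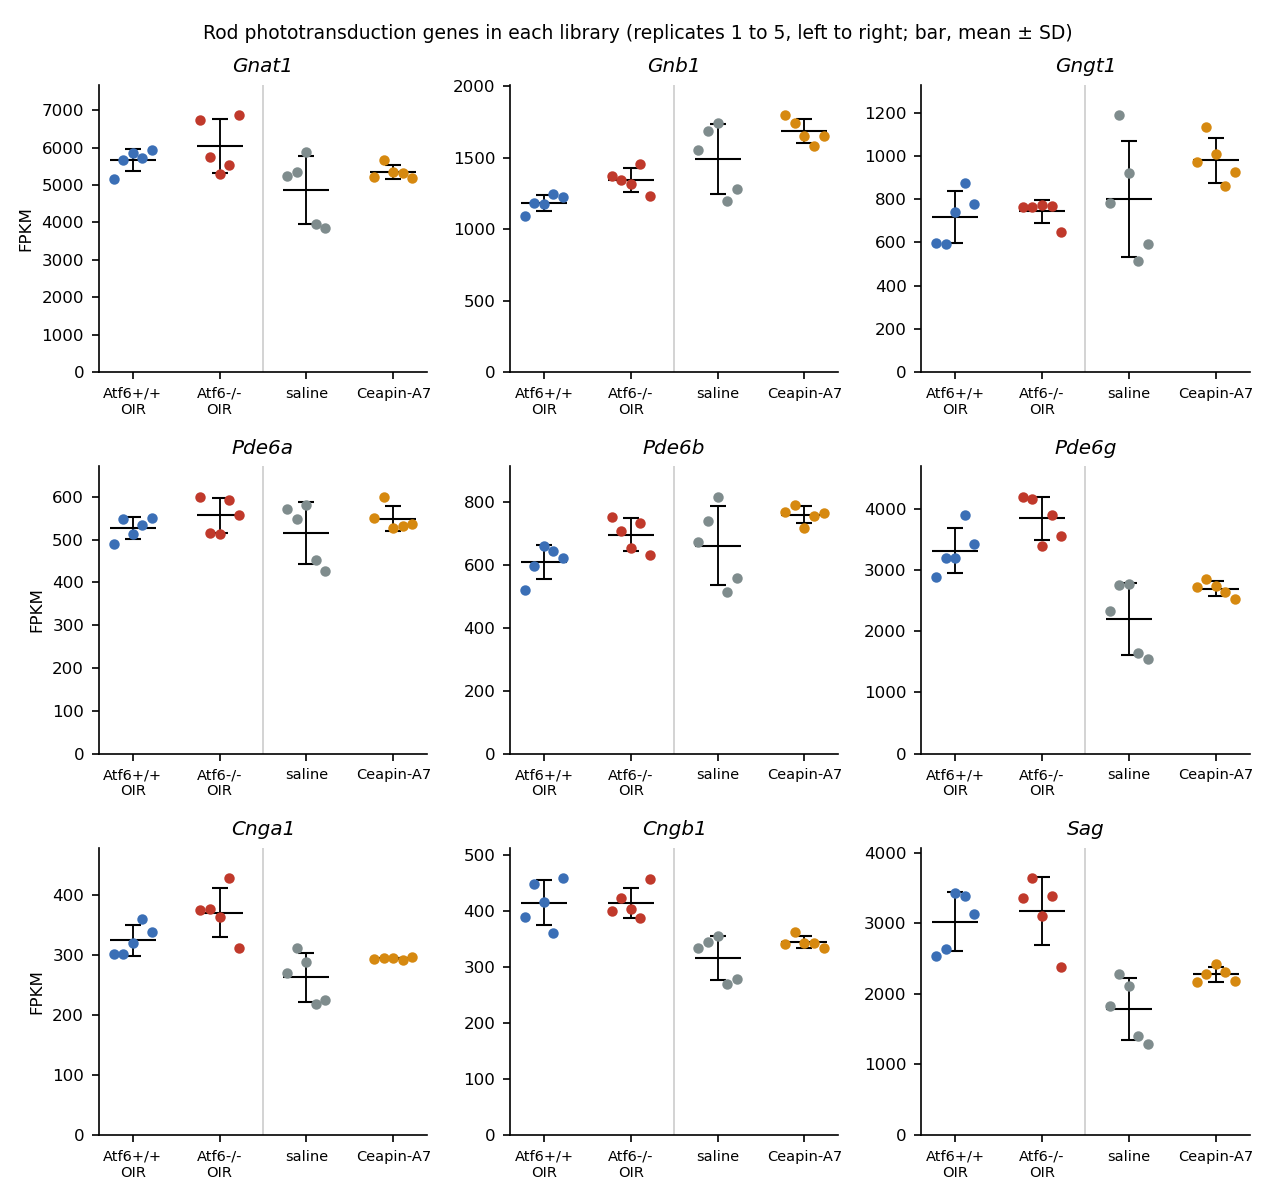
FPKM (vertical axes, starting at 0) of each rod phototransduction gene in the 20 libraries, with replicates 1 to 5 from left to right within each group and horizontal bars with whiskers for the mean ± SD. The P17 groups overlap for every gene, and saline replicates 4 and 5 lie below all other P30 libraries in each panel.

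The levels at P17 after OIR and at P30 after injection are set side by side without a test, because age, oxygen and injection, and for Ceapin-A7 the drug, all differed between these experiments and cannot be told apart. *Sag* averaged 3026 ± 420 FPKM in *Atf6*+/+ OIR, 1785 ± 435 after saline and 2275 ± 104 after Ceapin-A7 (SD, n = 5 each), and *Pde6g* averaged 3323 ± 373, 2209 ± 589 and 2701 ± 123 in the same order. *Gnb1* differed the other way, with 1183 ± 57.9, 1492 ± 243 and 1686 ± 83.7 FPKM. All saline libraries lay below all P17 libraries for *Pde6g*, *Sag* and *Cngb1*, and the other 6 genes overlapped. All Ceapin-A7 libraries lay below all P17 libraries for *Pde6g* and *Cnga1* and above all of them for *Gnb1*, and the other 6 overlapped, so *Pde6g* was the gene separated in the same direction in both P30 groups.

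The comparison of *Atf6*-/- with *Atf6*+/+ OIR retinas asked whether loss of *Atf6* changed the RNA of this cascade at the time when new vessels peak. All 9 genes had a higher mean log2 level in *Atf6*-/- OIR, by 0.02 to 0.23, but none passed the test (adjusted p of 0.362 to 0.930 by limma). Across all genes 0.0318% were called at an adjusted p under 0.05, and 50.7% had a fold change above 0. With the threshold at an unadjusted p of 0.05, 4 of the 9 passed, *Gnb1*, *Pde6b*, *Cnga1* and *Pde6g*, all higher in *Atf6*-/- OIR, beside 12.7% of all genes in either direction and 6.92% in this direction. The groups overlapped for every one of the 9, as they did for all but 1.52% of genes.

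In transducin, *Gnb1* was measured at 1094, 1180, 1173, 1243 and 1225 FPKM in *Atf6*+/+ OIR and at 1375, 1346, 1317, 1455 and 1230 FPKM in *Atf6*-/- OIR, here and below in the order of replicates 1 to 5. *Atf6*-/- replicates 1 to 4 lay above all *Atf6*+/+ libraries and replicate 5 lay within their range. The log2 fold change was 0.20 (SE 0.07, 95% interval 0.05 to 0.35, adjusted p = 0.362 by limma). *Gnat1*, the alpha subunit, was measured at 5162, 5657, 5847, 5734 and 5942 FPKM in *Atf6*+/+ OIR and at 6745, 5738, 5284, 5535 and 6863 FPKM in *Atf6*-/- OIR. *Atf6*-/- replicates 1 and 5 were the highest and the other 3 lay within the range of *Atf6*+/+. Its log2 fold change was 0.10 (SE 0.12, 95% interval −0.15 to 0.36). *Gngt1*, the gamma subunit, ranged from 593 to 873 FPKM in *Atf6*+/+ OIR and from 648 to 774 FPKM in *Atf6*-/- OIR, with a log2 fold change of 0.09 (SE 0.10), and no *Atf6*-/- library lay outside the range of *Atf6*+/+.

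In phosphodiesterase 6, *Pde6b* was measured at 520, 597, 661, 644 and 622 FPKM in *Atf6*+/+ OIR and at 752, 708, 652, 734 and 631 FPKM in *Atf6*-/- OIR. Replicates 1, 2 and 4 of *Atf6*-/- exceeded every *Atf6*+/+ library. The log2 fold change was 0.21 (SE 0.08, 95% interval 0.05 to 0.38, adjusted p = 0.362 by limma). The inhibitory subunit *Pde6g* was measured at 2895, 3196, 3201, 3899 and 3426 FPKM in *Atf6*+/+ OIR and at 4205, 4166, 3404, 3910 and 3565 FPKM in *Atf6*-/- OIR. The same 3 *Atf6*-/- libraries lay above all *Atf6*+/+ libraries, and the log2 fold change was 0.23 (SE 0.10, adjusted p = 0.379 by limma). *Pde6a*, the other catalytic subunit, had a smaller difference of 0.09 (SE 0.07, 95% interval −0.07 to 0.26), from 527 ± 25.1 FPKM in *Atf6*+/+ OIR to 557 ± 40.9 FPKM in *Atf6*-/- OIR (SD, n = 5 each).

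The 2 channel subunits differed in size of change. *Cnga1*, the alpha subunit that forms the pore, was measured at 301, 303, 321, 361 and 338 FPKM in *Atf6*+/+ OIR and at 376, 376, 363, 428 and 312 FPKM in *Atf6*-/- OIR. As for *Gnb1*, only *Atf6*-/- replicate 5 fell within the range of *Atf6*+/+, and the log2 fold change was 0.21 (SE 0.08, 95% interval 0.04 to 0.37, adjusted p = 0.362 by limma). It was the single one of the 9 genes called under any alternative, with limma's array weights, at 0.24 (adjusted p = 0.0341). In that fit *Gnb1* had an adjusted p of 0.05025 and *Pde6b* of 0.0789 (limma with array weights), both lower than in the main fit. The share of all genes called with array weights is not given here, so this call has no background beside it. *Cngb1*, the beta subunit, had a log2 fold change of 0.02 (SE 0.09, 95% interval −0.18 to 0.21), from 415 ± 40.4 to 414 ± 26.9 FPKM (SD, n = 5 each), and the sign of this difference turned under other scalings. The FPKM ratio of *Cnga1* to *Cngb1* was 0.784 in *Atf6*+/+ OIR and 0.894 in *Atf6*-/- OIR, a difference of 0.19 on the log2 scale that did not pass an exact two-sided permutation test (p = 0.214, adjusted p = 0.495). *Sag* was measured at 2530, 2638, 3435, 3387 and 3137 FPKM in *Atf6*+/+ OIR and at 3365, 3638, 3108, 3393 and 2380 FPKM in *Atf6*-/- OIR, so that *Atf6*-/- replicate 5 was the lowest of all 10, and its log2 fold change was 0.08 (SE 0.12).

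The median log2 fold change of the 9 genes was 0.10, beside 0.0028 over all genes tested. This is a size at which scaling between libraries matters. Of the 2002 genes that reached an unadjusted p of 0.05, 54.3% were higher in *Atf6*-/- OIR, and with FPKM as deposited this share was 30.5%. It was 31.0% with FPKM rescaled to a common sum, 30.9% with a common sum outside lens and pigment epithelium genes, and 36.7% with a common sum outside photoreceptor genes. With deposited FPKM, and with the sum outside photoreceptor genes, 9 of the 9 genes stayed higher in *Atf6*-/- OIR. With the other sums 8 did, and with quantile normalization 7 did, since that method gave *Gnat1* a fold change of 0 and *Cngb1* a negative one. The median of all genes stayed between −0.02 and 0.02 under these scalings.

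Libraries within a group differed by about as much as the groups. *Atf6*+/+ replicate 1 was the lowest of the 10 libraries for 6 of the 9 genes, and the 9 genes summed to 13981 FPKM there, against 15158 to 17038 FPKM in the other *Atf6*+/+ libraries. *Atf6*-/- replicate 1 had the highest sum, 18583 FPKM. The median log2 fold change of the 9 genes was 0.08 without *Atf6*+/+ replicate 1 and 0.07 without *Atf6*-/- replicate 1, but 0.15 without *Atf6*-/- replicate 3 and 0.17 without *Atf6*-/- replicate 5. Leaving out *Atf6*-/- replicate 5 moved single genes both ways, *Gnat1* from 0.10 to 0.03 and *Sag* from 0.08 to 0.17. In bulk tissue, a lower level from fewer rods and one from less RNA per rod cannot be told apart.

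Other gene groups that moved across the same libraries are given as measurements. A list of 12 injury response genes, added after values were seen and holding glial and stress genes such as *Gfap*, *Socs3*, *Atf3* and *Lif*, summed to 993.5, 444.6, 606.5, 776.8 and 455.2 FPKM in *Atf6*+/+ OIR and to 324.7, 668.6, 542.5, 386.2 and 535.6 FPKM in *Atf6*-/- OIR. The largest part of this sum in every library was *Vim*, which is also in the Müller glia list. *Vim* was at 490.57 FPKM in *Atf6*+/+ replicate 1 and at 213.5 FPKM in *Atf6*-/- replicate 1. The library with the lowest rod sum, *Atf6*+/+ replicate 1, had the highest injury response sum, and the library with the highest rod sum, *Atf6*-/- replicate 1, had the lowest. Other libraries did not follow this order. *Atf6*+/+ replicate 4 had the highest rod sum of its group, 17037.7 FPKM, with an injury response sum of 776.8 FPKM. *Atf6*+/+ replicate 2 had the lowest injury response sum of its group, 444.6 FPKM, with a rod sum of 15158.2 FPKM. *Atf6*-/- replicate 2 had the highest injury response sum of its group, 668.6 FPKM, with a rod sum of 17673.0 FPKM. All 12 injury response genes were lower in *Atf6*-/- OIR, with a median log2 fold change of −0.46, and 1 of them passed an unadjusted p of 0.05, beside 5.83% of all genes in this direction. All 13 lens fibre genes were listed, and their sum ran from 9.88 to 597.8 FPKM in *Atf6*+/+ OIR, where replicates 2 and 5 held 151.5 and 597.8 FPKM, and from 6.25 to 10.24 FPKM in *Atf6*-/- OIR. The sum of 10 pigment epithelium genes ran from 18.2 to 107.6 FPKM in *Atf6*+/+ OIR and from 66.8 to 294.7 FPKM in *Atf6*-/- OIR. Of 12 lens fibre genes tested, 11 were lower and 10 passed an unadjusted p of 0.05, all lower, beside 5.83% of all genes. Of the pigment epithelium genes 9 were higher and 6 passed, all higher, beside 6.92% of all genes in that direction.

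Marker lists of neurons, glia and vessels moved as well. The sum of 6 horizontal cell genes did not overlap between the groups, at 144.7 to 163.4 FPKM in *Atf6*+/+ OIR and 170.0 to 186.6 FPKM in *Atf6*-/- OIR. The sum of the 11 photoreceptor transcription factors described below did not overlap either, at 2425.8 to 2601.0 and 2606.7 to 2749.1 FPKM. The sums of the rod genes and of all the other lists overlapped. The share of 1.52% without overlap is for single genes and gives no background for sums. Of the horizontal cell genes 5 were higher and 3 passed an unadjusted p of 0.05, all higher, beside 6.92% of all genes in this direction. Their median log2 fold change, 0.17, was above the 0.10 of the rod genes. Of 10 bipolar genes 8 were higher and 1 passed, with a median of 0.09, and of 8 Müller glia genes 5 were higher and 1 passed. Of 10 endothelial genes 9 were lower and 2 passed, with a median of −0.25, and of 9 microglia and macrophage genes 8 were lower and 1 passed, beside 5.83% of all genes in that direction. Of 8 amacrine genes 6 were lower and 0 passed, and of 8 ganglion cell genes 4 were higher, 4 lower and 1 passed.

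*Atf6*+/+ replicates 2 and 5 were also left out together, a choice made after seeing their lens fibre sums. The 9 rod genes were again all higher, with a median of 0.14, and 3 of them passed an unadjusted p of 0.05, beside 9.11% of all genes in either direction and 4.4% in this direction. *Cngb1* moved from 0.02 to 0.12. Of the injury response genes all 12 were again lower, and 10 of them then passed an unadjusted p of 0.05, with a median of −0.88, beside 4.71% of all genes in this direction. The 2 libraries left out also had the lowest injury response sums of *Atf6*+/+ OIR, 444.6 and 455.2 FPKM. Leaving them out raises the *Atf6*+/+ mean of that sum, so a larger difference in it was fixed in advance. The horizontal cell genes were then higher for 6 of 6, with a median of 0.21. The part of injury response, lens, pigment epithelium and other cell class RNA in the rod values was not tested.

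**Figure D2:**
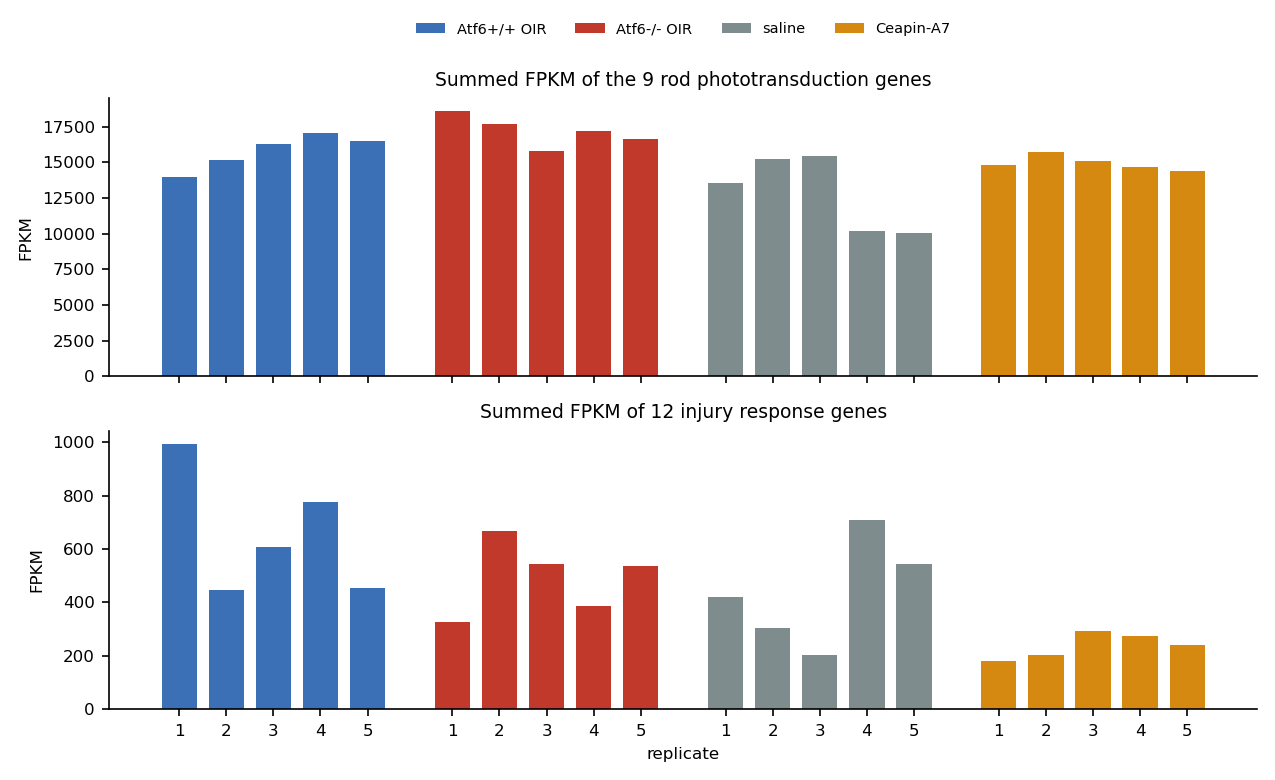
Summed FPKM of the 9 rod phototransduction genes (upper bars) and of 12 injury response genes (lower bars) in each library, with both axes starting at 0 and replicates numbered within groups. Saline replicates 4 and 5 have the lowest rod sums of all libraries, 10163 and 10033 FPKM, and the highest injury response sums of the P30 libraries, 707.3 and 544.6 FPKM. *Vim* is the largest part of each injury response sum.

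Another 4 lists of the same pathway and cell class were compared in the OIR retinas, and none of their genes passed an adjusted p of 0.05. Of 14 genes of shutoff and calcium feedback, 11 were higher in *Atf6*-/- OIR and 4 passed an unadjusted p of 0.05, all higher, beside 6.92% of all genes in this direction. The smallest p values were those of *Gnb5*, a subunit of the complex that switches transducin off, at 287 ± 24.6 and 348 ± 35.2 FPKM with a log2 fold change of 0.29 (SE 0.08), *Pdc*, which encodes the transducin-binding protein phosducin, at 0.29 (SE 0.09), and *Ppef2*, a photoreceptor phosphatase, at 0.24 (SE 0.09). Of 14 genes for trafficking and disc structure, 13 were higher and 4 passed an unadjusted p of 0.05, led by *Pde6d*, a carrier of prenylated proteins that include phosphodiesterase 6, at 96.3 ± 8.53 and 111 ± 4.46 FPKM. *Rp2*, a regulator of the small G protein ARL3, and *Rdh12*, a retinal reductase, followed with log2 fold changes of 0.27 (SE 0.10) and 0.20 (SE 0.07).

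In the cone cascade, 10 of 11 genes were higher in *Atf6*-/- OIR and 2 passed an unadjusted p of 0.05, against the same 6.92%, the cone opsin gene *Opn1mw* at 0.27 (SE 0.08) and *Gnat2* at 0.27 (SE 0.08). The third by p, *Slc24a2*, a cone ion exchanger, was at 0.14 (SE 0.10). Of 11 photoreceptor transcription factors, 10 were higher and 3 passed an unadjusted p of 0.05, *Rorb* at 0.47 (SE 0.13), *Thrb* at 0.20 (SE 0.06) and *Crx* at 0.19 (SE 0.06). *Crx*, whose product drives photoreceptor genes, was the one of these whose groups did not overlap, at 577 to 641 FPKM in *Atf6*+/+ OIR and 658 to 715 FPKM in *Atf6*-/- OIR, as for 1.52% of all genes. The medians of the 4 lists, 0.10, 0.11, 0.11 and 0.10 in the order given, were close to the 0.10 of the 9 rod genes. Without *Atf6*+/+ replicates 2 and 5, 14, 13, 10 and 10 of their genes were higher.

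The comparison of Ceapin-A7 with saline asked whether the cascade changed within a day of blocking ATF6 activation in retinas without OIR. All 9 genes had a higher mean log2 level after Ceapin-A7, by 0.10 to 0.38, and none passed the test (adjusted p of 0.47 to 0.71 by limma). Across all genes 0.0% were called, and 50.3% had a fold change above 0. With the threshold at an unadjusted p of 0.05, 1 of the 9 passed, *Sag*, beside 10.4% of all genes in either direction and 5.04% in this direction. The groups overlapped for all 9 genes, as they did for all but 1.34% of genes.

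*Sag* was measured at 1834, 2288, 2113, 1406 and 1285 FPKM after saline and at 2168, 2281, 2423, 2316 and 2186 FPKM after Ceapin-A7. The 2 lowest values belonged to saline replicates 4 and 5, and saline replicate 2 lay inside the range of Ceapin-A7. The log2 fold change was 0.38 (SE 0.16, 95% interval 0.04 to 0.73, adjusted p = 0.472 by limma), and an exact two-sided permutation test of this single gene gave p = 0.0397. *Gnat1* was measured at 5234, 5360, 5884, 3947 and 3841 FPKM after saline and at 5209, 5664, 5360, 5328 and 5185 FPKM after Ceapin-A7. Here too saline replicates 4 and 5 were the lowest, and saline replicates 1, 2 and 3 spanned almost the whole range of Ceapin-A7. Its log2 fold change was 0.16 (SE 0.15).

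*Gngt1* was measured at 780, 1188, 920, 515 and 593 FPKM after saline and at 971, 1135, 1009, 859 and 923 FPKM after Ceapin-A7, with a log2 fold change of 0.35 (SE 0.20). It had the widest spread of the 9 genes after saline, with a coefficient of variation of 33.7%. *Pde6g* was measured at 2332, 2754, 2771, 1642 and 1548 FPKM after saline and at 2735, 2859, 2740, 2643 and 2528 FPKM after Ceapin-A7, with a log2 fold change of 0.33 (SE 0.18). *Cnga1* was measured at 270, 312, 289, 219 and 225 FPKM after saline and at 294, 295, 295, 293 and 297 FPKM after Ceapin-A7, so the Ceapin-A7 libraries were almost equal, with a coefficient of variation of 0.479% against 15.4% after saline. The remaining log2 fold changes were 0.22 for *Pde6b*, 0.19 for *Gnb1*, 0.18 for *Cnga1*, 0.13 for *Cngb1* and 0.10 for *Pde6a*, with standard errors from 0.09 to 0.12, and the median of the 9 was 0.19, beside 0.00073 over all genes. Of the 1596 genes that reached an unadjusted p of 0.05, 48.6% were higher after Ceapin-A7, and this share was 57.4% with FPKM as deposited, 46.8% with quantile normalization, 26.8% with FPKM rescaled to a common sum, 30.1% with a common sum outside lens and pigment epithelium genes and 31.1% with a common sum outside photoreceptor genes. With quantile normalization 8 of the 9 rod genes were higher, and under the other scalings 9 were.

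The size of these differences depended on 2 libraries. Saline replicates 4 and 5 were the 2 lowest of the 10 P30 libraries for 9 of the 9 genes, and the same was so for 7.72% of all genes tested. The 9 genes summed to 13580, 15221, 15474, 10163 and 10033 FPKM in saline replicates 1 to 5 and to between 14402 and 15728 FPKM after Ceapin-A7. Without saline replicates 4 and 5, a choice made after seeing that they were lowest for these genes and one that can therefore only lower the fold changes, 6 of the 9 genes were higher and 3 lower after Ceapin-A7, the median log2 fold change was 0.0059, and none passed an unadjusted p of 0.05, beside 5.01% of all genes. *Gnat1* was then at −0.05 (95% interval −0.25 to 0.15), *Pde6a* at −0.06 (95% interval −0.19 to 0.06) and *Cngb1* at −0.02 (95% interval −0.12 to 0.08), and *Sag* kept the largest value, 0.12 (95% interval −0.07 to 0.31). The widest of the 9 intervals was that of *Gngt1*, from −0.28 to 0.33.

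**Figure D3:**
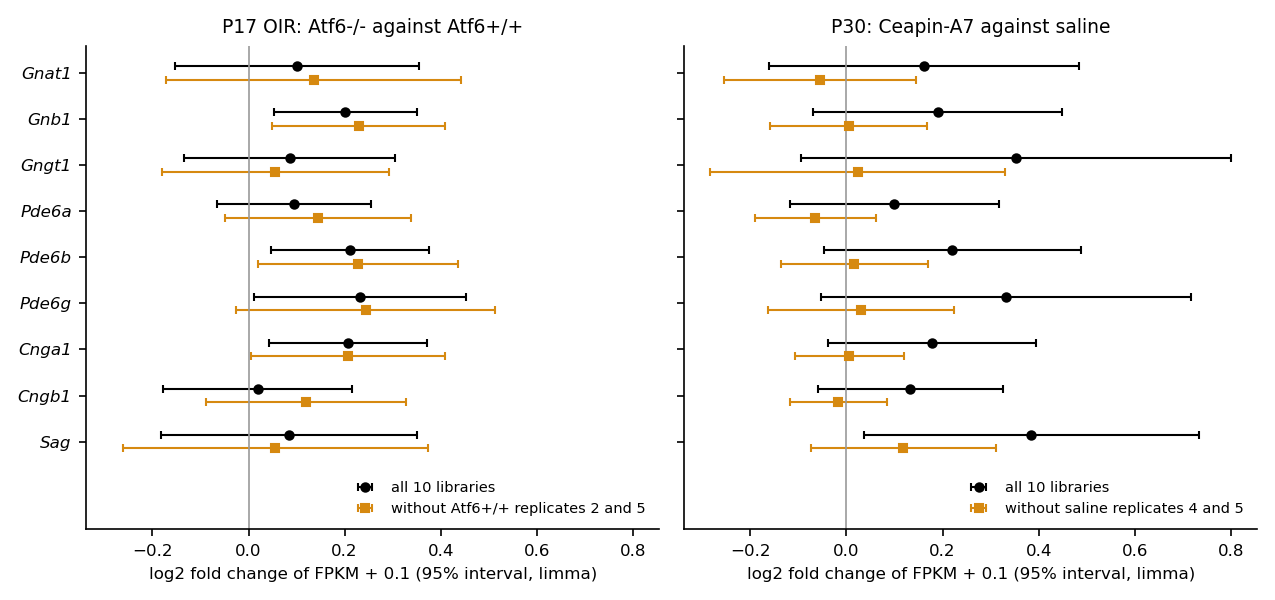
Log2 fold changes of the 9 rod phototransduction genes with 95% intervals from limma, for *Atf6*-/- against *Atf6*+/+ OIR and for Ceapin-A7 against saline, with all 10 libraries (black circles) and with 2 libraries left out (orange squares). The P30 values run from 0.10 to 0.38, and from −0.06 to 0.12 without saline replicates 4 and 5, left out for their low rod values, and the OIR values run from 0.02 to 0.23, and from 0.06 to 0.24 without *Atf6*+/+ replicates 2 and 5, left out for their lens fibre values.

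In the same 2 saline libraries, 10 of the 12 injury response genes were at their 2 highest P30 values, as were 15.5% of all genes tested. *Atf3* was at 28.56 and 20.72 FPKM in saline replicates 4 and 5 and between 3.18 and 6.4 FPKM in the other 8 libraries, and *Lif*, a cytokine released by Müller glia after damage, was at 4.25 and 5.23 FPKM against 0.2 to 0.38 FPKM. *Glul*, the glutamine synthetase of Müller glia, was at 254 and 330 FPKM in these 2 libraries and between 624 and 1024 FPKM in the others. The Müller glia genes did not all go this way. *Vim*, which is in both the Müller glia and the injury response list, was at 327 and 312 FPKM there and between 97.9 and 189 FPKM in the others. After Ceapin-A7 all 12 injury response genes had a lower mean than after saline, and 8 of them passed an unadjusted p of 0.05, beside 5.32% of all genes in this direction. Without saline replicates 4 and 5, all 12 were still lower and 1 passed, beside 2.39% of all genes. The lens fibre sum did not follow the 2 libraries: it was 5361, 1974, 8.95, 1930 and 27.3 FPKM in saline replicates 1 to 5 and between 95.6 and 9639 FPKM after Ceapin-A7. The pigment epithelium sum was lowest of the saline libraries in replicates 4 and 5, at 135.6 and 121 FPKM. The part of the injury response in the rod values was not tested.

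The low values of saline replicates 4 and 5 were shared by some of the other lists. They were the 2 lowest libraries for 9 of 14 genes of shutoff and calcium feedback, 7 of 14 trafficking and disc genes, 6 of 11 cone genes, 4 of 11 photoreceptor transcription factors, 3 of 10 bipolar genes and 3 of 8 Müller glia genes. For the 8 amacrine, 8 ganglion cell, 10 endothelial, 13 lens fibre and 10 pigment epithelium genes this was so for 0 genes in each list. It was so for 1 of 6 horizontal cell genes and 1 of 9 microglia and macrophage genes. The share over all genes tested was 7.72%, at which lists of these sizes would hold few such genes or none. The lists were of different sizes and no list was tested against another.

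After Ceapin-A7, none of the genes of the 4 photoreceptor lists passed an adjusted p of 0.05. At an unadjusted p of 0.05, 5.04% of all genes were higher and 5.32% lower. Of the shutoff and calcium feedback genes, 13 of 14 were higher and 1 passed that threshold, *Guca1a*, a calcium sensor of retinal guanylate cyclase, at 0.26 (SE 0.11). *Guca1b*, its paralogue, was at 0.17 (SE 0.08) and *Pdc* at 0.31 (SE 0.18). Without saline replicates 4 and 5, 5 were higher and 9 lower, 0 passed, and *Guca1a*, *Guca1b* and *Pdc* were at 0.08, 0.05 and −0.0099. Of the trafficking and disc genes, 10 of 14 were higher and 2 passed, *Pde6d* at 0.16 (SE 0.06) and *Prcd*, a small disc protein, at 0.24 (SE 0.11), while *Tulp1*, a trafficking protein, was at 0.19 (SE 0.09). Without the 2 libraries 6 were higher and 8 lower, 1 passed, and these genes were at 0.13, 0.08 and 0.03.

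In the cone cascade 9 of 11 were higher and 6 passed, led by the cone arrestin gene *Arr3* at 0.17 (SE 0.05), the cone transducin gamma gene *Gngt2* at 0.38 (SE 0.12) and the cone phosphodiesterase gene *Pde6c* at 0.32 (SE 0.12). Without saline replicates 4 and 5, *Arr3* was at 0.22, *Gngt2* at 0.17 and *Pde6c* at 0.14, and 10 of the 11 cone genes were higher, 2 of them past an unadjusted p of 0.05, beside 2.61% of all genes in this direction. Of the transcription factors 6 of 11 were higher, and the 1 that passed, *Mef2d*, was lower after Ceapin-A7 by a log2 fold change of −0.20 (SE 0.07), with *Nrl*, the factor that commits photoreceptors to the rod fate, at 0.21 (SE 0.10) and *Neurod1* at −0.18 (SE 0.09). Without the 2 libraries 3 were higher and 8 lower, 2 of them past that threshold and lower, and *Mef2d*, *Nrl* and *Neurod1* were at −0.14, 0.05 and −0.07. The medians of the 4 lists were 0.09, 0.12, 0.20 and 0.03 in the order given, and −0.02, −0.03, 0.07 and −0.04 without the 2 libraries.

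Ratios of genes within a library do not depend on how libraries are scaled. For 15 pairs, 7 of partner genes within the rod cascade and 8 of a rod gene to its cone paralogue, the log2 ratios were compared in both experiments, which gave 30 exact two-sided permutation tests. None passed an adjusted p of 0.05. The smallest p in OIR was 0.0556, for *Pde6g* to its cone paralogue *Pde6h*, from 10.3 to 11.3 (exact permutation test, adjusted p = 0.357). With 5 libraries against 5 the smallest p such a test can give is 0.00794, and 3 ratios of the P30 comparison had an unadjusted p under 0.05.

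The ratio of *Pde6a* to its cone paralogue *Pde6c* was between 14.54 and 17.3 after saline and between 12.2 and 14.49 after Ceapin-A7, with geometric means of 15.9 and 13.6. No saline library lay below any Ceapin-A7 library. The log2 difference was −0.22 (exact permutation p = 0.00794, adjusted p = 0.238). Without saline replicates 4 and 5 it was −0.20, with the smallest exact permutation p that 3 libraries against 5 allow, 0.0357. The full groups already did not overlap, so this p was fixed in advance and adds no further check. The ratio of *Gnat1* to *Gnat2* was 58.5 after saline and 52.4 after Ceapin-A7 in geometric mean, with a log2 difference of −0.16 (exact permutation p = 0.0476, adjusted p = 0.357), and of −0.18 without the 2 saline libraries (exact permutation p = 0.107). The ratio of *Sag* to *Gnat1* was 0.364 after saline and 0.425 after Ceapin-A7, with a log2 difference of 0.22 (exact permutation p = 0.0318, adjusted p = 0.357), and of 0.17 without them (exact permutation p = 0.143).

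Among partner genes, the catalytic subunits *Pde6a* and *Pde6b* stayed close to each other, with FPKM ratios of 0.868, 0.80, 0.786 and 0.723 in *Atf6*+/+ OIR, *Atf6*-/- OIR, saline and Ceapin-A7. The ratio of *Pde6g* to *Pde6a* was 6.28, 6.91, 4.19 and 4.92 in the same order, and that of *Gnat1* to *Gnb1* was 4.79, 4.47, 3.24 and 3.18. For these pairs the exact permutation p within each experiment was between 0.0794 and 0.556. The P17 and P30 values are set side by side without a test.

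**Figure D4:**
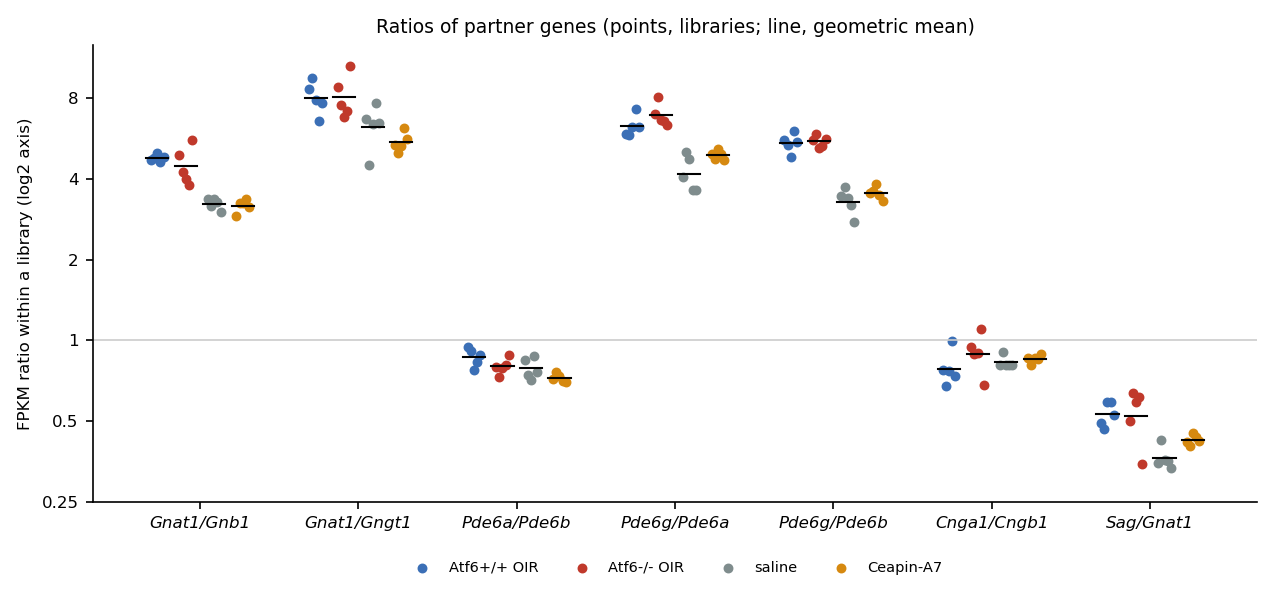
Ratio of FPKM between partner genes of the rod cascade in each library, on a log2 axis, with a short line at the geometric mean of each group. Ratios of *Gnat1* to *Gnb1* lie between 3.81 and 5.58 in OIR and between 2.90 and 3.37 at P30, and those of *Pde6a* to *Pde6b* lie below 1 in every library.

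The pattern of the 9 genes over the 20 libraries was summarised as the median of their log2 values after subtraction of the gene's own mean in that experiment. *Gnb1* and *Pde6b* followed this profile most closely, with root mean square differences of 0.04 and 0.05 on the log2 scale, and *Sag* and *Gngt1* least, with 0.139 and 0.165. The profile is the median of these 9 genes, so their closeness to it is partly built in. Among 6954 other genes with a mean of at least 10 FPKM in both experiments, the 5 nearest were *Pex5l* (0.05), *Pla2g7* (0.06), *Prcd* (0.06), *Pla2g5* (0.07) and *Nrl* (0.07). A gene with no change would differ from the profile by 0.159, less than *Gngt1* did, and the median of the genes compared was 0.184. All genes compared share the same 20 libraries, the 2 low saline libraries among them, and this likeness is a description with no test.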

How the data were processed

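Strand-specific mRNA libraries of whole retinas were sequenced by the authors as paired-end reads of 100 bp, mapped with HISAT2 (v2.0.4) to the GRCm39 genome and quantified with RSEM (v1.2.18). The deposited FPKM values, given by the authors per gene and library to 2 decimals in 4 tables, are scaled within each library, and 0 columns of per-sample values were left unused. The authors tested with DESeq2 (v1.4.5), and those results were not used here. FPKM are not counts, so no count model was fitted and no counting interval was computed.

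Groups were taken from the labels. Nothing stated that libraries of a group came from separate animals, so p-values measure the spread between these libraries. Each experiment was fitted on its own 10 libraries with limma (version 3.58.1, R version 4.3.3, eBayes with trend) on log2(FPKM + 0.1) after median-of-ratios scaling (factors 0.946 to 1.042 in OIR and 0.980 to 1.018 at P30), for genes with a mean FPKM above 0.1, with Benjamini-Hochberg adjustment over all of them. Ratios were compared by exact permutation tests with adjustment over 30 tests. The fits were tested on simulated data. Members, lists and ratios were chosen with earlier results of these data known, and the injury response list after values were seen. Named genes are the 9 members, the 3 genes of smallest p in each of 4 lists, their cone paralogues in the ratios, and the 5 genes nearest in pattern. *Gfap*, *Socs3*, *Atf3*, *Lif*, *Vim* and *Glul* were named after their values were seen. Alternatives were other pseudocounts (1 and 0.01), filters, scalings, limma options, a GC content correction (lowess span 0.3, GC content from GENCODE transcripts of GRCm38 for 97.0% and 97.1% of genes), a replicate block, a fit of all 20 libraries and leaving out libraries.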

Additional observations from a re-analysis of the deposited data

Results flagged for a closer look

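Each gene, each ratio and the sum of the 9 genes was examined in each group of 5 libraries for a library set apart from the other 4 by Dixon's 95% criterion. Of 100 groups of values 5 held such a library, and chance gives about 1 in 20. *Gngt1* was at 647.9 FPKM in *Atf6*-/- OIR replicate 5 and between 761.2 and 773.9 FPKM in the other *Atf6*-/- libraries. The ratio of *Gngt1* to *Gngt2* was 3.24 in *Atf6*+/+ OIR replicate 1 and between 4.05 and 4.28 in the others. The ratio of *Pde6g* to *Pde6a* was 7.28 in *Atf6*+/+ OIR replicate 4 and between 5.84 and 6.24 in the others. In saline replicate 2 the ratio of *Cnga1* to *Cngb1* was 0.906, against 0.810 to 0.813 in the others, and that of *Sag* to *Gnat1* was 0.427, against 0.334 to 0.359.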

How the results depend on the processing

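In OIR, none of the 9 genes was called at an adjusted p under 0.05 except under array weights, where 1 was, *Cnga1*. The 4 genes at an unadjusted p of 0.05 or less became 2 with FPKM as deposited, 0 with quantile normalization, 1 with the replicate block, 0 with the replicate block and GC correction and 1 in the fit of all 20 libraries, and 3 to 4 when 1 library was left out. Over all genes, 1906 passed with FPKM as deposited and 2028 with quantile normalization, beside 2002 in the main fit. For the replicate blocks, the fit of all 20 libraries and leaving out 1 library, the number over all genes is not given here. The median ranged from 0.07 to 0.17 without 1 library and from 0.06 to 0.14 otherwise. *Cngb1* turned to −0.0053 (common sum), −0.028 (quantile normalization), −0.0055 (sum outside lens and pigment epithelium) and −0.082 (array weights), and without 1 library lay between −0.043 (without *Atf6*+/+ replicate 4) and 0.064. It was −0.036 without *Atf6*-/- replicate 5. *Gngt1* turned to −0.057 under the GC correction, with and without the replicate block. The remaining 234 of 243 values of single genes kept their direction and side of the threshold, or were 0 in the case of *Gnat1* under quantile normalization, which gives a gene of constant rank a constant value.

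At P30, none of the 9 genes was called under any alternative. The 1 gene at an unadjusted p of 0.05 or less became 3 with the replicate block, 2 with the replicate block and GC correction, 2 in the fit of all 20 libraries and 0 without saline replicates 4 and 5 together. Leaving out 1 library gave 0 to 4 genes, with 4 without saline replicate 2, 3 without saline replicate 3 and 0 without saline replicate 4 or 5 or Ceapin-A7 replicate 2, 3 or 4. Over all genes, 10.4% passed in the main fit and 5.01% without saline replicates 4 and 5 together. For the replicate blocks, the fit of all 20 libraries and leaving out 1 library, the share of all genes is not given here. Those counts therefore have no background beside them. The median ranged from 0.11 without saline replicate 4 to 0.25 without saline replicate 3. Without saline replicates 4 and 5 together it was 0.0059, with *Gnat1* at −0.054, *Pde6a* at −0.065 and *Cngb1* at −0.017. The cause of these changes was not tested. No ratio was called under any alternative, and the 3 P30 ratios at an unadjusted p of 0.05 or less became 1 to 6 without 1 library, 6 of them without saline replicate 2. Same-numbered libraries did not deviate together (correlations from −0.26 to 0.31, and 1 of 10 numbers correlated best with itself), so the replicate block describes a shared number only. FPKM hold no counts, so counting error is not part of any interval.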
